A study of Apis mellifera with 6 samples.

Results

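The genes described here encode immune recognition proteins and antimicrobial peptides of the adult honey bee (Apis mellifera). They were chosen by name, from rows whose symbol starts with PGRP, Tep or Apid or is Def1 or Def2, together with LOC406142 (hymenoptaecin) and LOC406144 (abaecin). Of the 10041 genes listed for every library, 6 matched: LOC406142, LOC406144, Def1 (defensin 1), Apid1 (apidaecin 1), Pgrp-s2 and PGRP-S3. No row with a Tep symbol matched, and Def2 was not analysed here. All 6 entered the test, since no filter on low values was used.

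Midguts were taken from 3 bees fed sucrose solution with 200 µM halofuginone in 0.5% DMSO for 24 h (Halofuginone 2, 3 and 4) and from 3 bees fed the solution with 0.5% DMSO alone for 24 h (Control 1, 2 and 3). Each library came from the midgut of 1 bee. Per the study's methods, adult bees of mixed North American stock were caught at the landing board of outbred colonies, and the bees of an experiment shared a colony. Their ages are not stated. Halofuginone stops proline from being loaded onto its tRNA, and it served to activate the integrated stress response. No gene was deleted or silenced, and the bees were not deliberately infected as far as the labels say.

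Insects lack antibodies and rely on receptors encoded in the germ line. Peptidoglycan recognition proteins bind the cell wall polymer of bacteria, and their short forms are secreted. In Drosophila some of them start the Toll or Imd signalling cascade, while others are enzymes that cut peptidoglycan and so damp the response. Both cascades end in transcription factors of the NF-κB family that switch on genes for antimicrobial peptides, which are made mainly in the fat body and in haemocytes and also in epithelia such as the gut. Among the bee peptides, hymenoptaecin is rich in glycine, abaecin and apidaecin are rich in proline, and defensin 1 is held together by disulphide bonds.

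For none of the 6 genes could limma tell the difference between the groups from the spread between bees. With limma across all 10041 genes, 0 of the 6 met the call rule (Benjamini-Hochberg adjusted p under 0.05 and absolute log2 fold change above 1), which called 238 genes or 2.37% of those tested. The adjusted p alone was passed by 0 of the 6 and by 6.88% of all genes. An unadjusted p under 0.05 was reached by 0 of the 6 and by 23.7% of all genes. DESeq2, edgeR's quasi-likelihood test and limma-voom on the recovered reads also called 0 of the 6. In every one of the 6 genes the halofuginone bees and the control bees overlapped, whereas the groups did not overlap in 30.6% of all genes. By sign, 3 of the 6 log2 fold changes were above 0 and 3 below, with a median of −0.20, beside −0.01 over all genes.

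**Figure D1:**
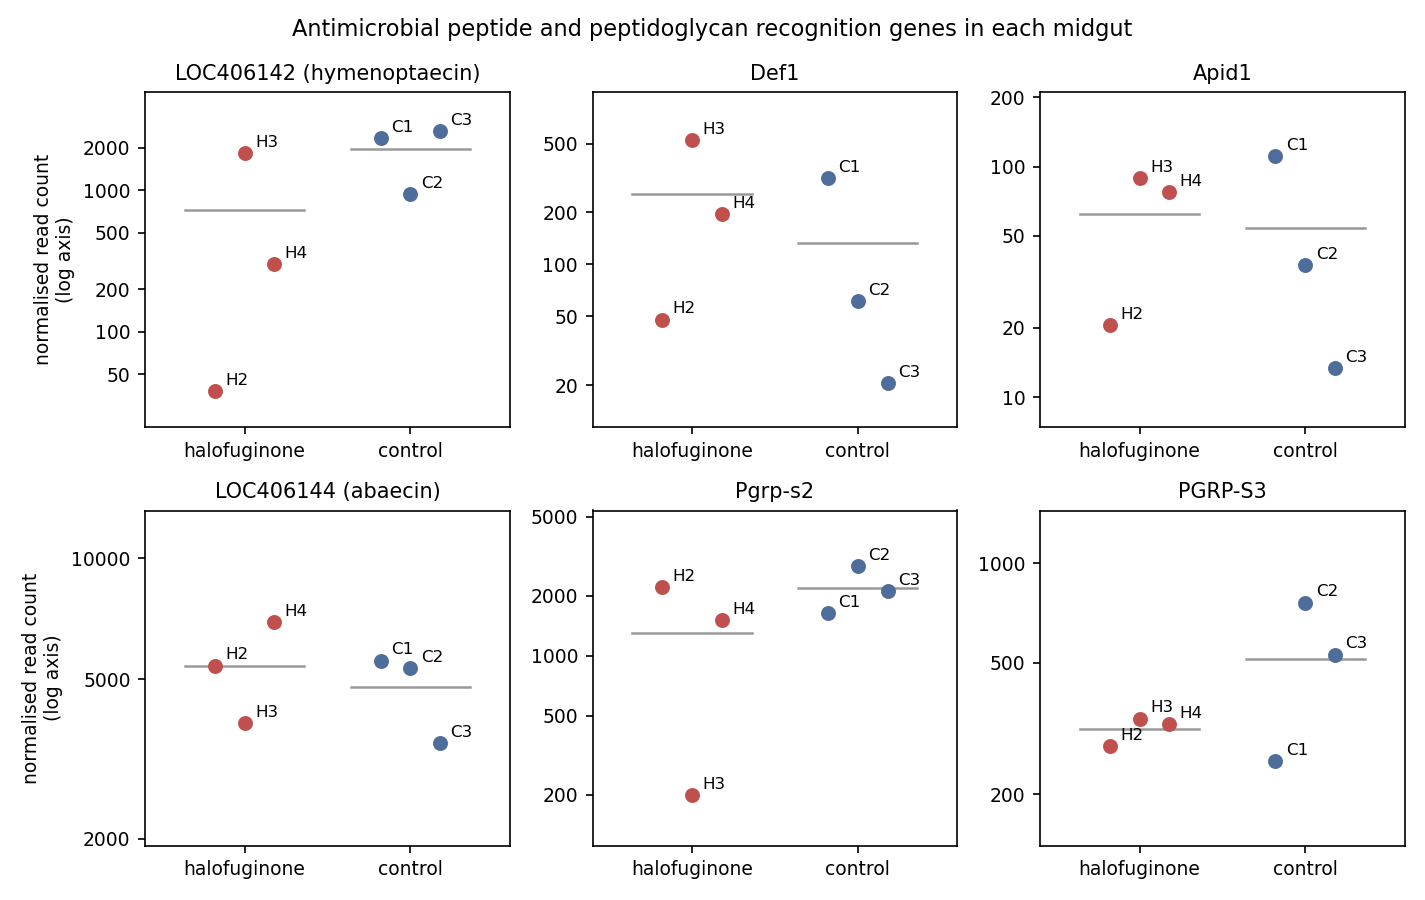
Normalised read count (log axis) of each gene in the 3 halofuginone midguts (H2 to H4, red) and the 3 control midguts (C1 to C3, blue); grey lines are group means. The groups overlap in all 6 panels, and LOC406142 reaches from 38.1 in H2 to 2609 in C3.

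LOC406142 encodes hymenoptaecin, a peptide active against bacteria. Its normalised read count was 38.1 in Halofuginone 2, 1827 in Halofuginone 3 and 299.9 in Halofuginone 4, against 2354 in Control 1, 935 in Control 2 and 2609 in Control 3. Halofuginone 2 and 4 lay below every control, and Halofuginone 3 lay among the controls. The group values were 722 ± 966 in halofuginone-fed bees and 1966 ± 902 in control bees (SD, n = 3 each). The log2 fold change was −2.69 ± 1.25 (SE) with a 95% interval from −5.64 to 0.26, and limma's adjusted p was 0.248 (unadjusted 0.0683). The value depended on single bees. It was −1.27 without Halofuginone 2 and −4.05 without Halofuginone 3 (limma adjusted p = 0.0655). It also depended on the tool, at −1.45 in DESeq2, which compares means of counts and not means of logarithms.

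Def1 encodes defensin 1, a peptide known chiefly for its action on Gram-positive bacteria. Normalised read counts were 47.8, 523 and 194 in Halofuginone 2, 3 and 4, against 315, 61.2 and 20.5 in Control 1, 2 and 3. Each group thus held a bee with a high level and a bee with a low one. The means were 255 ± 243 in halofuginone-fed bees and 132 ± 160 in control bees (SD, n = 3 each). Their log2 fold change of 1.19 ± 1.14 (SE) had a 95% interval from −1.49 to 3.86 and a limma adjusted p of 0.578. Leaving out single bees moved it between 0.29 (without Control 3) and 2.22 (without Control 1).

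Apid1 encodes apidaecin 1, a short peptide that acts on Gram-negative bacteria. Its normalised read count was 20.5, 89.3 and 77.7 in Halofuginone 2, 3 and 4, against 111, 37.5 and 13.3 in Control 1, 2 and 3. The highest and the lowest bee were both controls. The lowest value stood on 13 reads, with an exact 95% Poisson interval from 6.92 to 22.2 reads, and the 21 reads of Halofuginone 2 had one from 13.0 to 32.1 reads (counting error only). Counting error alone therefore left these 2 bees unseparated. Halofuginone-fed bees differed from controls by 0.44 ± 0.84 on the log2 scale (SE, 95% interval −1.54 to 2.41, limma adjusted p = 0.804), and by −0.30 without Control 3. Apidaecin genes come in near-identical copies, and the gene table gives Apid1 the synonyms Apid14 and Apid22. The sources used here do not say how reads matching several copies were counted, so this level is uncertain.

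LOC406144 encodes abaecin, and it was the steadiest of the 4 peptide genes. Its counts were 5403, 3886 and 6926 in Halofuginone 2, 3 and 4, against 5559, 5329 and 3460 in Control 1, 2 and 3. The values of the groups interleaved. The means were 5405 ± 1520 in halofuginone-fed bees and 4783 ± 1151 in control bees (SD, n = 3 each). The log2 fold change stood at 0.17 ± 0.26 (SE), and its 95% interval, from −0.45 to 0.78, lay inside the fold threshold on either side (limma adjusted p = 0.748). It was −0.03 without Halofuginone 4 and −0.05 without Control 3.

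Pgrp-s2 encodes a short peptidoglycan recognition protein. Its normalised counts were 2217, 200.0 and 1505 in Halofuginone 2, 3 and 4, against 1633, 2827 and 2105 in Control 1, 2 and 3. Apart from Halofuginone 3 the bees lay close together, and that bee was 7.52-fold below the next lowest. Counting Pgrp-s2 itself, 2 of the 10041 genes (0.0199%) had Halofuginone 3 as their lowest library by at least that factor. The bee and the factor were taken from Pgrp-s2, so this share describes the value and tests nothing. The log2 fold change was −1.29 ± 0.83 (SE, 95% interval −3.23 to 0.66) and did not pass limma's test (adjusted p = 0.394). It rested on that bee, and was −0.22 without it.

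PGRP-S3, listed with the synonym Pgrp-sa, is the other short recognition protein gene. The counts were 279, 338 and 326 in Halofuginone 2, 3 and 4, against 251, 759 and 528 in Control 1, 2 and 3. The halofuginone bees lay within 1.21-fold of each other and below 2 of the 3 controls. Control 1 was the lowest bee of all. The means were 314 ± 31.2 in halofuginone-fed bees and 513 ± 254 in control bees (SD, n = 3 each), and the log2 fold change was −0.57 ± 0.37 (SE, 95% interval −1.45 to 0.31, limma adjusted p = 0.403). The outcome depended on single bees. Without Control 1 the log2 fold change was −1.01 with a limma adjusted p of 0.0415, which passed both thresholds. In that setting limma called 277 of all genes, against 238 with every bee. On replicates 2 and 3 alone, without a block, it was −1.04 and not called (limma adjusted p = 0.0857). Without Control 2 it was −0.22 (limma adjusted p = 0.771).

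**Figure D2:**
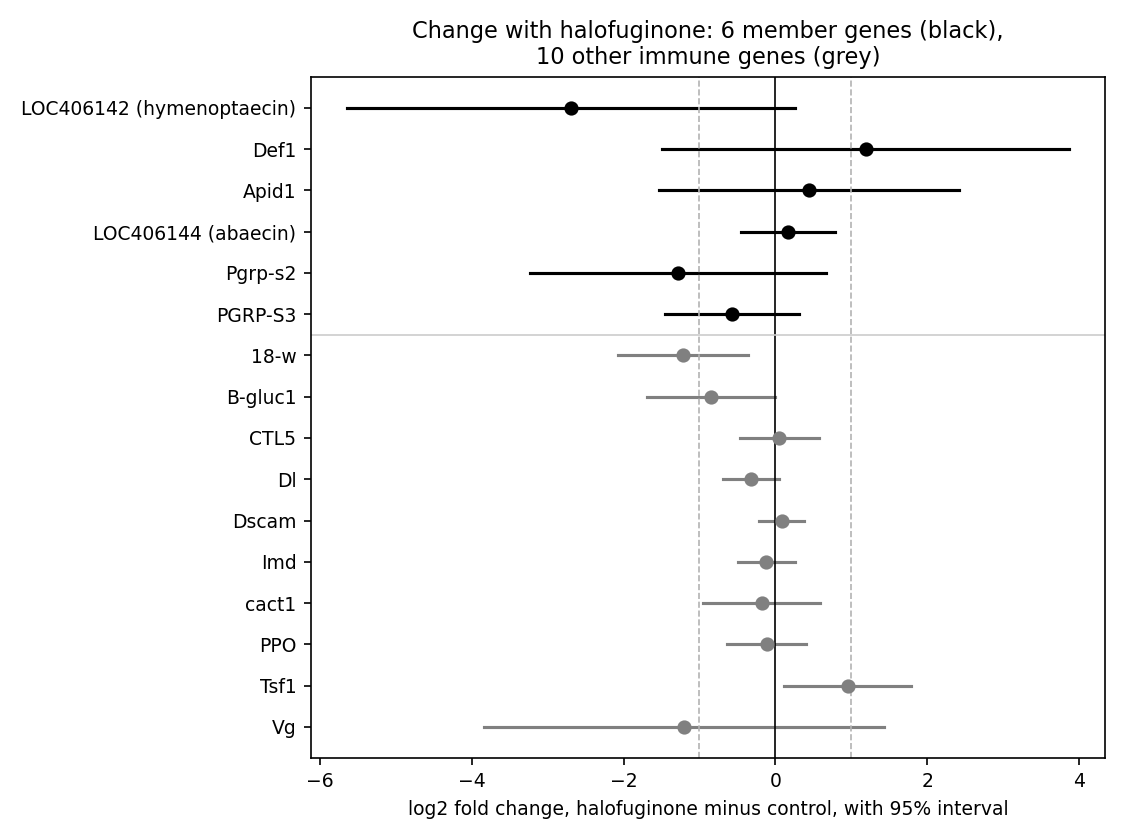
Log2 fold change (halofuginone minus control, points) with limma's 95% interval (lines) for the 6 genes (black) and 10 other immune genes (grey); dashed lines mark a log2 fold change of 1 in either direction. The intervals of all 6 genes cross 0, from the narrow one of LOC406144 (−0.45 to 0.78) to the wide one of LOC406142 (−5.64 to 0.26).

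Bees of the same group differed widely in most of these genes. The spread was measured as the SD of log2(normalised read count + 1) within groups. This SD was 2.05 for LOC406142, 1.84 for Def1, 1.34 for Pgrp-s2, 1.32 for Apid1, 0.58 for PGRP-S3 and 0.40 for LOC406144. All 6 were above the median of 0.25 over all genes, and the median of the 6 was 1.33. LOC406142 spread more than 99.4% of all genes, Def1 more than 99.2%, Pgrp-s2 more than 97.9% and Apid1 more than 97.8%. PGRP-S3 and LOC406144 stood at 84.8% and 71.1%. Genes with few reads vary more from counting alone, and limma's variance trend gives a fitted SD for a gene of the same mean. LOC406142 had 11.0 times that fitted SD, Pgrp-s2 7.81 times, Def1 6.09 times, Apid1 3.19 times, PGRP-S3 2.76 times and LOC406144 2.26 times. Over all genes the median fitted SD was 0.21, below the median observed SD of 0.25.

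**Figure D3:**
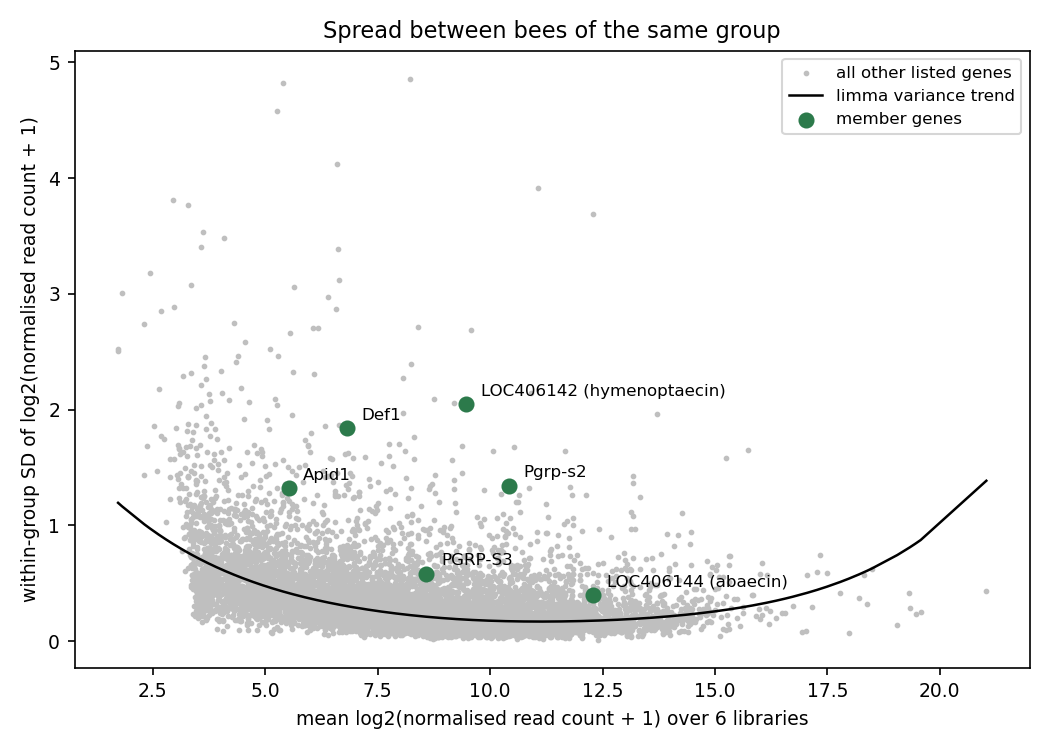
Within-group SD of log2(normalised read count + 1) against mean log2 level over 6 libraries, for all listed genes (grey) and the 6 genes (green), with limma's variance trend (black line). All 6 lie above the trend, from 2.26 times it (LOC406144) to 11.0 times it (LOC406142). Over all genes the median SD (0.25) is also above the median of the trend (0.21), and the share of genes above it was not counted.

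The wide spread did not fall in the same group for every gene. For LOC406142 the highest bee was 48.0-fold above the lowest among halofuginone-fed bees and 2.79-fold among controls. The 3 halofuginone bees of Pgrp-s2 spanned 11.1-fold and its 3 controls 1.73-fold. PGRP-S3 had the opposite layout, with 1.21-fold after halofuginone and 3.02-fold in controls. Def1 was wide in both groups, at 10.9-fold after halofuginone and 15.4-fold in controls, and so was Apid1, at 4.36-fold after halofuginone and 8.30-fold in controls. LOC406144 was narrow in both, at 1.78-fold after halofuginone and 1.61-fold in controls. The median gene spanned 1.35-fold in either group, and at least 10-fold was reached by 1.43% of all genes after halofuginone and by 1.22% in controls. Whether the spread of a gene differed between the groups was not tested.

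The peptide genes did not follow each other as a block. Def1 and Apid1 came closest, since 14 of the 15 pairs of libraries stood in the same order for both. From high to low, Def1 ran Halofuginone 3, Control 1, Halofuginone 4, Control 2, Halofuginone 2 and Control 3, and Apid1 differed only in having Control 1 above Halofuginone 3. Of all other genes, 1.24% matched the order of Def1 in at least 14 pairs and 1.02% matched that of Apid1. LOC406142 shared 8 of 15 pairs with Def1 and 9 with Apid1. LOC406144 shared 10 of 15 with Apid1, 9 with Def1 and 4 with LOC406142, and Pgrp-s2 shared 4 with Def1. In Control 3, for instance, Def1, Apid1 and LOC406144 were at their lowest of all 6 bees, while LOC406142 was at its highest.

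Because of this, hymenoptaecin was also set against the other peptide genes within each library, which needs no scaling between libraries. Per read of Def1 there were 0.796, 3.49 and 1.54 reads of LOC406142 in Halofuginone 2, 3 and 4, against 7.47, 15.3 and 127 in Control 1, 2 and 3. The groups did not overlap. The log2 ratio (with 1 read added to each count) averaged 0.70 ± 1.06 in halofuginone-fed bees and 4.58 ± 2.09 in control bees (SD, n = 3 each), a difference of −3.87. Per read of Apid1 the values were 1.86, 20.5 and 3.86 in Halofuginone 2, 3 and 4, against 21.2, 24.9 and 196 in Control 1, 2 and 3. These groups were parted only by the narrow gap between Halofuginone 3 and Control 1, and the log2 difference was −3.12. Halofuginone 3 and Control 1 each held 104 reads of Apid1, with an exact Poisson interval from 85.0 to 126 reads. Counting error alone could therefore close that gap. The log2 ratio of LOC406142 to LOC406144 was −7.11, −1.09 and −4.52 in Halofuginone 2, 3 and 4. In Control 1, 2 and 3 it was −1.24, −2.51 and −0.41, so against abaecin the groups overlapped.

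All 15 ratios between the 6 genes were formed, and the groups did not overlap in 2, those of LOC406142 to Def1 and to Apid1. These 2 were formed after seeing the data. An exact permutation test (two-sided) gave p = 0.1 for both, the lowest value that 3 bees against 3 allow, and the Benjamini-Hochberg value over the 15 ratios was 0.643. Among all other genes, the ratio to Def1 was free of overlap for 0.468% and the ratio to Apid1 for 0.578%. Taken from the other side, the ratio to LOC406142 was free of overlap for 8.28% of genes. When each bee was left out in turn, the difference for Def1 ran from −4.71 to −2.70 and that for Apid1 from −4.10 to −2.12. The 2 ratios are not separate results, since Def1 and Apid1 ordered 14 of the 15 pairs of libraries alike. In Control 3, where both ratios were highest, they stood on 20 reads of Def1 and 13 reads of Apid1.

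**Figure D4:**
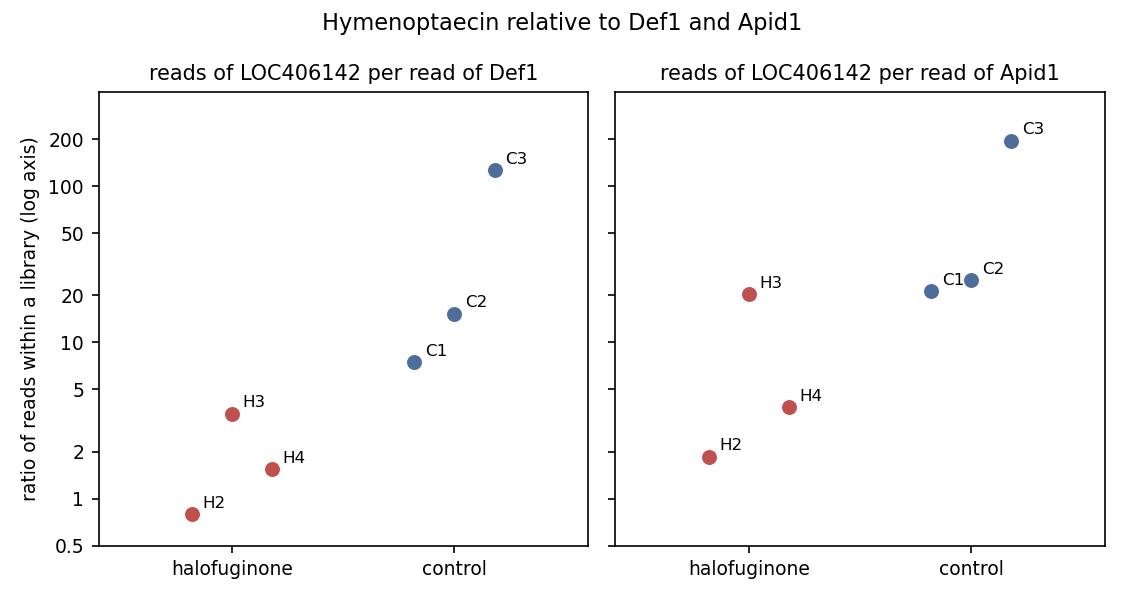
Reads of LOC406142 (hymenoptaecin) per read of Def1 (left) and per read of Apid1 (right) in each library, on a log axis, for halofuginone (red) and control (blue) midguts. Per read of Def1 the halofuginone bees reach at most 3.49 and the control bees at least 7.47, while per read of Apid1 H3 (20.5) and C1 (21.2) nearly meet.

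Each deposited table held 1 halofuginone and 1 control library, and the difference within tables changed sign for every gene. LOC406142 was lower by 5.91 on the log2 scale in Halofuginone 2 than in Control 1 (a difference of −5.91), higher by 0.97 in Halofuginone 3 than in Control 2, and at −3.12 in Halofuginone 4 against Control 3. In the same 3 tables Def1 had differences of −2.70, 3.07 and 3.18, and Apid1 had differences of −2.38, 1.23 and 2.46. The tables are not stated to mark pairs of bees, so these values only describe the libraries.

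Reads of 3 of the 6 genes may be mixed with those of a neighbour. In the gene table used here, which belongs to another assembly than the reads, each of these spans overlaps another gene. Pgrp-s2 overlaps LOC100576758, LOC406142 overlaps LOC552342, and LOC406144 overlaps LOC414025. No source used here says whether counting took strand into account. LOC100576758 had a normalised read count of 405, 42.9 and 244 in Halofuginone 2, 3 and 4, against 157, 459 and 333 in Control 1, 2 and 3, so it too was lowest in Halofuginone 3. LOC552342 held between 1219 and 1524 in halofuginone-fed bees and between 1092 and 1381 in control bees, and it lacked the wide spread of LOC406142. LOC414025 was at 541, 657 and 442 in Halofuginone 2, 3 and 4, against 767, 849 and 762 in Control 1, 2 and 3, and limma's adjusted p for it was 0.0937.

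**Figure D5:**
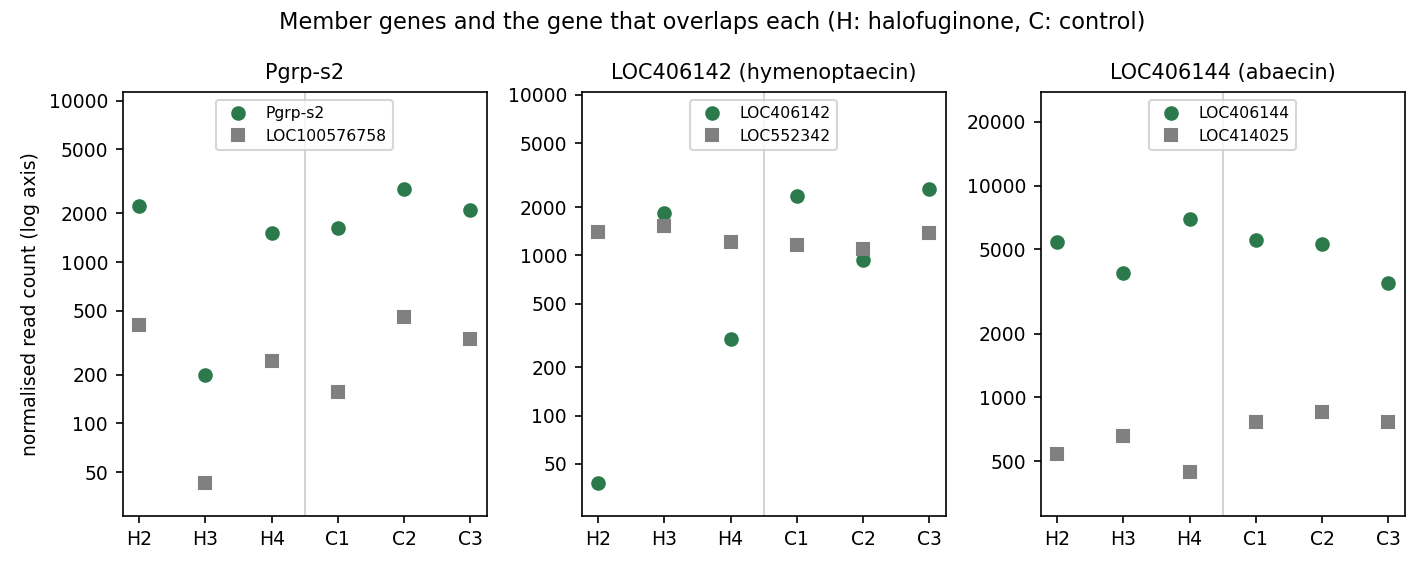
Normalised read count (log axis) of Pgrp-s2, LOC406142 and LOC406144 (green circles) and of the gene that overlaps each (grey squares) in the halofuginone (H2 to H4) and control (C1 to C3) libraries. Pgrp-s2 and LOC100576758 are both lowest in H3, at 200.0 and 42.9, whereas LOC552342 is at 1092 or more in all 6 libraries.

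Other genes of insect immunity were examined from a list of names, and 10 were found by symbol or synonym. Limma called 0 of the 10 (DESeq2 called 1, edgeR and limma-voom 0), beside 2.37% of all genes in limma. An unadjusted p under 0.05 was reached by 3 of the 10, beside 23.7% of all genes, and the median log2 fold change was −0.15. The signalling genes included Imd, the adaptor of the Imd cascade, Dl (dorsal), a transcription factor at the end of the Toll cascade, and cact1, a cactus gene whose product holds dorsal back in Drosophila. Their log2 fold changes were −0.12 ± 0.16, −0.32 ± 0.16 and −0.18 ± 0.33 (SE), with limma adjusted p values of 0.699, 0.272 and 0.783. The 10 genes thus held no call in limma in either direction.

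The smallest adjusted p among the recognition and signalling genes belonged to 18-w, which in Drosophila encodes a receptor of the Toll family. Normalised counts were 144, 341 and 301 in Halofuginone 2, 3 and 4, against 785, 560 and 429 in Control 1, 2 and 3. Every halofuginone bee lay below every control. Groups without overlap, in either direction, were found in 2 of the 10 other immune genes, beside 30.6% of all genes. The log2 fold change was −1.22 ± 0.36 (SE) with a limma adjusted p of 0.0937. DESeq2 gave −1.17 and called the gene (adjusted p = 0.0137), and over all alternatives the adjusted p ran from 0.0137 to 0.232.

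Among the effector and humoral genes it belonged to Tsf1, which encodes transferrin, an iron-binding protein of the haemolymph. Its normalised read count was 581, 818 and 578 in Halofuginone 2, 3 and 4, against 403, 496 and 189 in Control 1, 2 and 3. The groups did not overlap. The log2 fold change was 0.95 ± 0.36 (SE) with a limma adjusted p of 0.162. PPO, the precursor of the enzyme that makes melanin, was at 56.1 to 71.3 in halofuginone-fed and 63.1 to 75.9 in control bees.

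The tissue was checked against marker genes. The alpha-glucosidases Hbg2 and AGLU2, taken as midgut markers, summed to between 984978 and 1091167 in halofuginone-fed bees and between 1174288 and 1680535 in control bees. The fat body list (Vg and the hexamerins Hex70a, HEX70b, Hex70c and Hex110, all 5 listed) summed to 453 to 721 in halofuginone-fed bees and 735 to 973 in control bees. Within it Vg, the yolk protein vitellogenin, which is also among the 10 other immune genes, lay between 2.58 and 28.0 after halofuginone and between 6.39 and 102 in controls. Both sums were lower in every halofuginone bee than in any control, and the fat body sums nearly met at 721 and 735. Of the midgut markers this held for AGLU2 and not for Hbg2, which was lowest in Control 1. Among the fat body markers it held for Hex110, while the groups overlapped in Vg, Hex70a, HEX70b and Hex70c. Over all genes, the groups did not overlap in 30.6%. Visceral muscle markers (7 of 11 listed) summed to between 4750 and 8532 in halofuginone-fed bees and between 5340 and 8916 in control bees. Head gland markers (3 of 10) summed to between 2160 and 3035 in halofuginone-fed bees and between 2866 and 4974 in control bees. The groups thus overlapped in both of these sums. Within them Hbg3, TpnCI and TpnCIIIb were lower in every halofuginone bee than in any control, and the other listed markers overlapped. Hbg3 was at 544, 458 and 598 in Halofuginone 2, 3 and 4, against 1244, 1706 and 1834 in Control 1, 2 and 3. The part of these cell types in the values of the 6 genes was not tested. PPO was the only listed haemocyte marker of 3, and none of the listed markers was at 0. In bulk midguts fewer cells of a type and less RNA per cell cannot be told apart.

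The 6 libraries held between 23305398 and 26278866 recovered reads, and no pair of libraries of 1 group differed by as little as sampling noise. Differences were taken between bees within a gene, or between bees in a ratio of 2 genes, and no gene is ranked against another by level, since transcript lengths of the build used were not at hand.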

How the data were processed

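Poly(A) RNA of 6 single midguts was sequenced as paired reads of 150 bp. Per the study's methods and the submitters' processing notes, reads were trimmed (Trimmomatic 0.36), mapped to Amel 4.5 and counted per gene, with STAR, Subread and DESeq2 among the tools named. The deposited values are a normalised signal, in which the authors had divided the reads of a gene by a size factor per library. In each library 100% of values were whole reads within a tolerance of 0.01, and all 6 columns were used. The lowest total of a listed gene was 61 reads. Limma's p-values set the group difference against the spread between these single bees, moderated by the variance trend over all genes. Since the bees of an experiment shared a colony, differences between colonies are not covered.

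All 10041 genes entered limma (3.58.1, R 4.3.3) with a variance trend on log2(normalised count + 1), which understates changes of low genes. DESeq2 (1.42.0), edgeR (4.0.16) and limma-voom on recovered reads, 3 other scalings, other pseudocounts, a filter of 1 CPM in 3 libraries, no trend, blocks and leaving out each library were alternatives. Every gene that matched the symbol rule is named, and of the other immune genes any called one, or the smallest adjusted p of each role. Genes, lists and tests were chosen with earlier results of these data known. The 5 genes CSP1 to CSP4 and CSP6 matched the list's letters for clip proteases but name chemosensory proteins and were left out. Gene names and overlaps came from a RefSeq table (Amel_HAv3.1), so no coordinates are printed. Python 3.11.15, numpy 2.4.6, pandas 2.3.3, scipy 1.17.1 and matplotlib 3.10.9 served the other steps.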

Additional observations from a re-analysis of the deposited data

How the results depend on the processing

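The number of the 6 genes called was 0 in all 19 alternatives but 1, and lay between 0 and 1 when each library was left out (PGRP-S3 without Control 1). The number of all genes called, 238, was 383 with DESeq2, 3 with the replicate block over replicates 2 and 3, 7 with a block by deposited table, and 47 to 277 without single libraries (126 without Halofuginone 4, 63 without Control 2 and 47 without Control 3). Of the 10 other immune genes, 18-w was called by DESeq2, which made 1 call. Same-numbered bees shared no deviations (r = 0.07 and −0.03 across genes), so the numbers were not read as pairs; the block called 0 of the 6 genes. The sign turned for 5 genes. Without single libraries Apid1 ran from −0.30 to 1.19, LOC406144 from −0.0497 to 0.39, cact1 from −0.39 to 0.17 and CTL5 from −0.14 to 0.19. On replicates 2 and 3, with or without the replicate block, cact1 was at 0.26 and Imd at 0.0793. LOC406142, Def1, Pgrp-s2 and PGRP-S3 kept their sign in all 19 alternatives. The median spread between bees was 1.28 to 1.34 with TMM or other pseudocounts. The ratios to Def1 and Apid1 were formed, and their alternatives chosen, after seeing the data. The filter on low values left out Vg. The cause of these changes was not tested. Counting error limits Apid1 and Def1 most, with as few as 13 and 20 reads.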

Other observations

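The low level of Pgrp-s2 in Halofuginone 3 was looked at beside its neighbours in the gene order of the RefSeq table. On the near side LOC725158 had a normalised read count of 9127, 2928 and 6761 in Halofuginone 2, 3 and 4, against 7833, 10812 and 8259 in Control 1, 2 and 3, so it was lowest in the same bee, though by a smaller factor. On the far side LOC551249 was at 299, 453 and 193 in Halofuginone 2, 3 and 4, against 266, 498 and 430 in Control 1, 2 and 3, and there Halofuginone 3 was not low. The only other gene that fell as far below all other libraries in Halofuginone 3 was LOC100576797, on a low level throughout. These genes were chosen after the values of Pgrp-s2 had been seen.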
